A study of Sus scrofa with 12 samples.

Results

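The genes of glycolysis and the target genes of the hypoxia-inducible factors (HIF) were followed in porcine aortic valve interstitial cells (paVICs), the fibroblasts of the valve leaflet. The set was a list of 40 gene symbols, and 36 of them had a row with that symbol in the count table, out of 31908 genes in all. All 36 were among the 13216 genes that passed the filter on low counts. Of the other 4 symbols, SLC2A3 was not analysed here, while PKM, EGLN1 and MXI1 were found only through a separate table of gene names and are given apart. The 36 genes were 20 genes of glycolysis, lactate handling and pyruvate entry, and 16 genes of the HIF response.

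The 12 libraries were made from poly-A RNA of wild-type paVICs kept for 24 h in low-serum medium under 1 of 4 treatments (n = 3 each). These were vehicle (0.6% DMSO and 0.1% ethanol), 10 μM lysophosphatidylcholine (LPC) with 0.6% DMSO, 60 μM dantrolene with 0.1% ethanol, and both agents together. LPC is a lipid of oxidized low-density lipoprotein that makes these cells form calcific nodules, and dantrolene blocks the ryanodine receptor, a calcium release channel. The replicates of a group came from separate isolations, each pooled from the valves of several hearts. A replicate is therefore a pool and not a single animal, and the age of the pigs was not given. Equal replicate numbers were taken to mean the same isolation, which the sample labels do not state. The libraries hold transcripts only, with no reading of oxygen, lactate or protein.

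Glycolysis splits glucose to pyruvate in a series of cytosolic steps that begin with hexokinase. Cells that run it fast turn the pyruvate to lactate and export it. HIF is a pair of subunits, and its alpha subunit is marked for destruction by prolyl hydroxylases when oxygen is present, so its control lies mostly on the protein and not on the transcript. When the alpha subunit lasts, HIF raises the transcripts of nearly every glycolytic step, of lactate export, and of genes for vessel growth, mitophagy, pH control and collagen hydroxylation. In valve tissue, which has few vessels, the same response is known from diseased leaflets.

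Total counts lay between 16489684 and 24105935 per library. Replicate 2 of LPC + dantrolene stood apart, with a correlation of log2 CPM of 0.901 and 0.917 to its group, where the other libraries reached 0.966 or more with at least 1 replicate. Several values are also given without it. The 10 markers of interstitial cells and fibroblasts, among them VIM and COL1A1, summed to between 44542 and 81806 CPM (counts scaled to a common library total) in every library, and the 8 endothelial markers to between 105 and 173 CPM. Of the 10, LUM was called higher with LPC, dantrolene and both (1.35, 1.59 and 1.35 on the log2 scale) and POSTN with LPC (1.60), and 0 were called lower compared to vehicle. The endothelial sum was 141 to 173 CPM with vehicle, 105 to 142 with LPC, 122 to 126 with dantrolene, and 109 to 112 with LPC + dantrolene, and its part in the results was not tested. The leukocyte markers PTPRC and CD3E had no count in any library, and all 7 leukocyte markers summed to between 13.8 and 28.8 CPM. The 4 smooth muscle markers summed to 2053 to 4043 CPM with vehicle, 1954 to 3568 with LPC, 1590 to 2037 with dantrolene, and 844 to 2723 with LPC + dantrolene, with no test of their part. Of these, DES fell by 1.30 on the log2 scale with dantrolene and by 1.63 with the combination (edgeR, adjusted p = 0.0117 and 0.00114), and of the endothelial markers CDH5 fell by 1.20 with dantrolene (adjusted p = 0.0111). In bulk libraries, fewer cells of a type and less RNA per cell cannot be told apart.

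Expression is given as CPM scaled by TMM, a factor that corrects for differences in RNA composition, and a gene was called where the quasi-likelihood test of edgeR gave an adjusted p under 0.05 (Benjamini-Hochberg, over all 13216 genes). Dantrolene lowered 11 of the 36 genes compared to vehicle and raised 1, where 1.26% of all tested genes were called lower and 7.54% higher. The combination lowered 10 and raised 1, where 0.9% and 6.23% of all genes were called. LPC alone lowered 0 and raised 1, where 0.144% and 8.54% of all genes were called. At an unadjusted p under 0.05 there were 1 and 3 of the 36, but the share of all genes at that threshold was not counted. DESeq2 also called 0 lower and 1 higher with LPC, where 0.159% and 8.22% of all genes were called. The gene that rose was HIF1A in each of these comparisons, and the genes that fell were glycolysis genes and HIF targets. These 3 comparisons share the vehicle libraries. The list was chosen with earlier results of these data known, so the counts are not an independent test of these pathways.

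**Figure D1:**
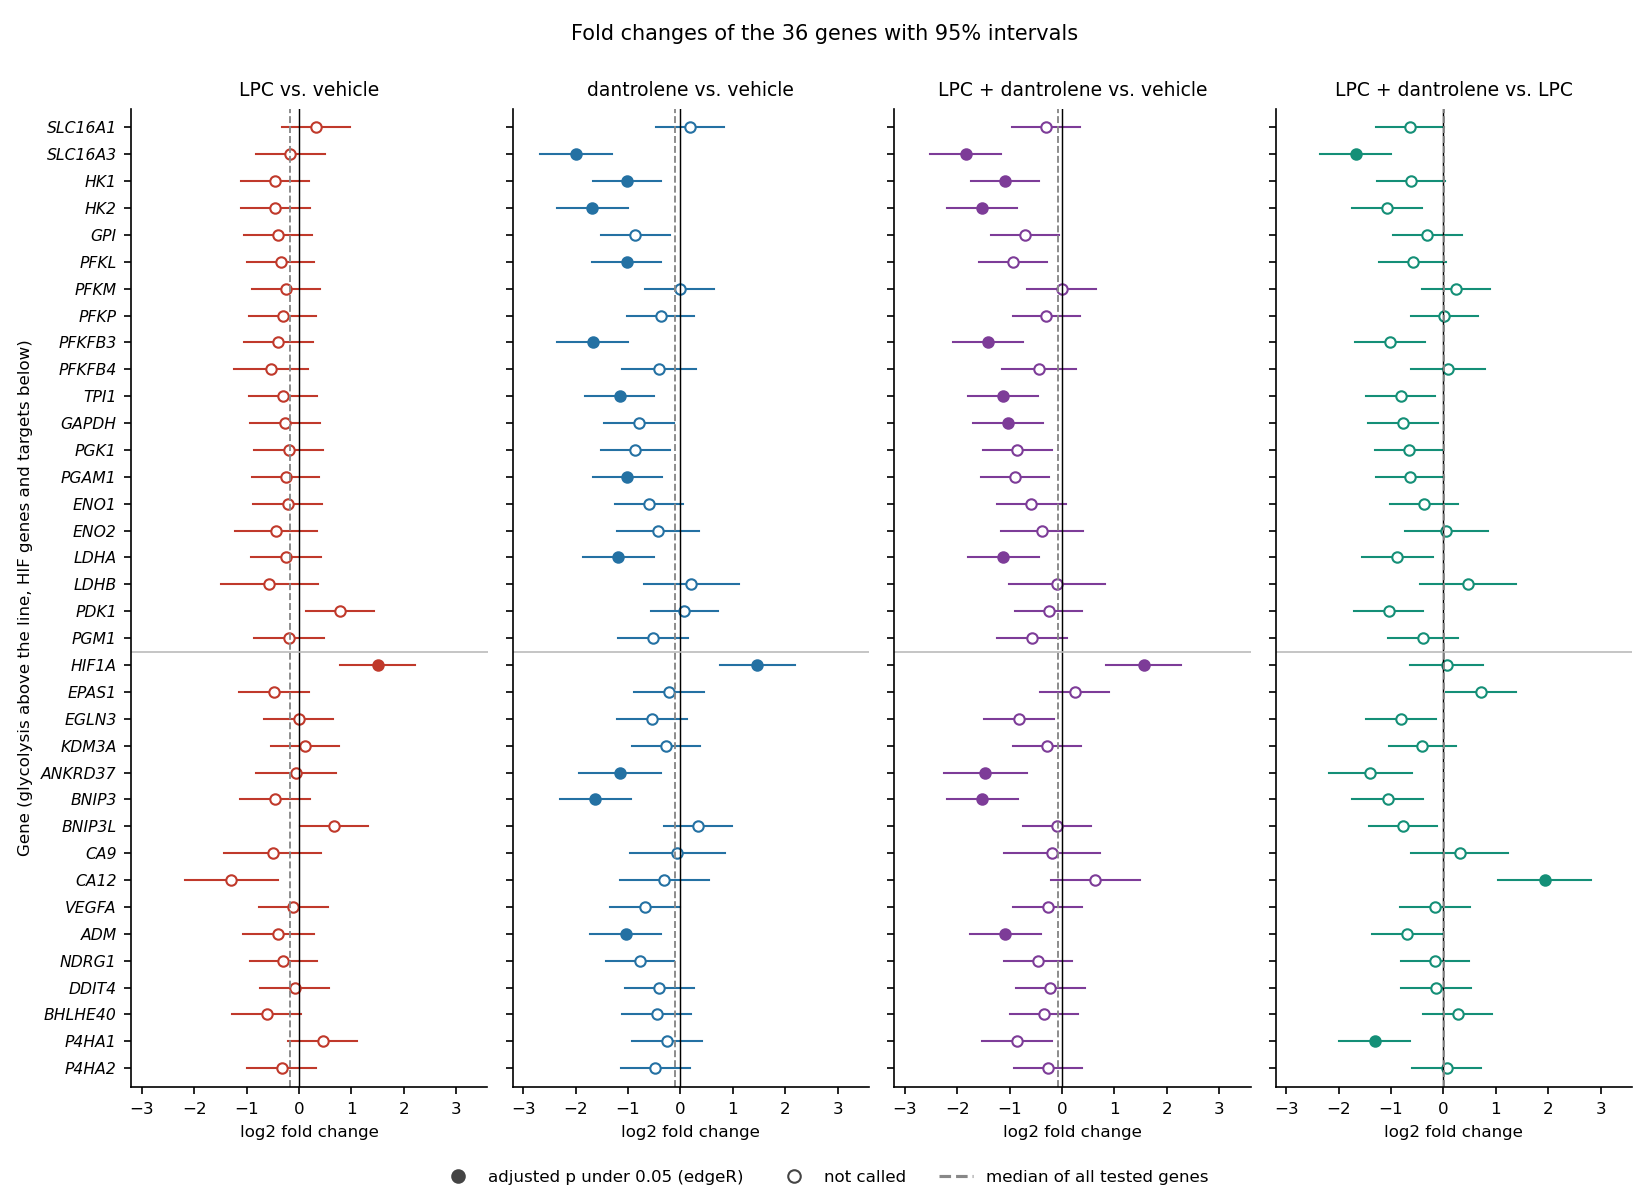
Log2 fold changes of the 36 genes (horizontal axis) with 95% intervals in 4 comparisons, with filled points for an adjusted p under 0.05 (edgeR) and a dashed line at the median of all tested genes. HIF1A lies to the right in all 3 comparisons with vehicle, while SLC16A3, HK2, PFKFB3 and BNIP3 lie below −1.4 in both comparisons of dantrolene-treated cells with vehicle.

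The median log2 fold change of the 36 genes was −0.53 with dantrolene, against −0.11 for all tested genes. With LPC + dantrolene it was −0.51 against −0.08, or −0.71 against −0.077 without replicate 2 of that group, and with LPC −0.28 against −0.18. On library totals alone all fold changes shifted up, to medians of −0.29 for the 36 genes and 0.13 for all genes with dantrolene. The gap between both medians was −0.42 with TMM and −0.42 without it, but a shift shared by all genes can hardly change this gap. On library totals alone 5 of the 36 genes were called lower with dantrolene, where 0.462% of all genes were. The 20 glycolysis genes had a median of −0.83 with dantrolene and −0.78 with the combination, and the 16 HIF genes −0.43 and −0.28. In 21 of the 36 genes all 3 dantrolene libraries lay below all 3 vehicle libraries, which held for 11% of all tested genes. The same was so for 17 genes with LPC + dantrolene (5.74% of all) and 4 with LPC (10.6% of all). By sign alone, 31 of the 36 genes had a fold change below 0 with dantrolene, 33 with the combination and 30 with LPC, against 58.6%, 58.1% and 63.3% of all tested genes. All libraries were higher than vehicle for 1 gene with dantrolene (16.1% of all), 0 with the combination (4.71%) and 3 with LPC (16.6%).

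These counts moved when single libraries were left out. The 11 genes lower with dantrolene became 7, 4 and 5 when vehicle replicate 1, 2 or 3 was left out, and 4, 4 and 6 when dantrolene replicate 1, 2 or 3 was, while the share of all genes called fell to between 0.383% and 0.946%. The 10 lower with LPC + dantrolene became 3 and 6 with vehicle replicate 2 or 3 left out, when 0.405% and 0.359% of all genes were called. They became 4 and 5 with replicate 1 or 3 of the combination left out, when 0.693% and 0.308% were called. Without replicate 2 of the combination there were 15, when 2.89% of all genes were called. With a block for isolation, 6 were lower with dantrolene and 8 with the combination, where 0.583% and 0.446% of all genes were called. Fewer genes were called under most of these settings, but no call turned its direction under any of them.

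Hexokinase traps glucose in the cell, and both measured forms fell. HK2 (ENSSSCG00000008261, chr3:68155656-68231187 on Sscrofa11.1), the inducible form, was at 74.6, 133 and 64.2 CPM in replicates 1, 2 and 3 of vehicle and at 75.6, 66.4 and 57.1 with LPC. With dantrolene it was at 17.4, 31.0 and 36.2 CPM, and with LPC + dantrolene at 26.0, 34.4 and 34.1. The 6 libraries with dantrolene lay below the 6 without it. HK2 fell by 1.68 on the log2 scale with dantrolene (standard error 0.34, adjusted p = 0.00021) and by 1.52 with the combination (standard error 0.34, adjusted p = 0.000847). The first call held in all 18 alternatives, and the second was lost without replicate 2 of vehicle (adjusted p = 0.0649).

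HK1, the widely expressed form, was at 523, 895 and 665 CPM with vehicle and 537, 425 and 549 with LPC. It was at 277, 391 and 361 CPM with dantrolene and 247, 433 and 299 with the combination. Both groups with dantrolene lay below vehicle in every library, while replicate 2 of LPC + dantrolene reached into the LPC range. HK1 fell by 1.02 with dantrolene (standard error 0.33, adjusted p = 0.0338) and by 1.09 with the combination (standard error 0.33, adjusted p = 0.0233). With dantrolene the call was lost without replicates 2 or 3 of vehicle or replicates 1, 2, or 3 of dantrolene (adjusted p = 0.0953 to 0.282), with RLE size factors (0.0529), on library totals alone (0.1), and with a block for isolation (0.0602). With the combination it was lost without replicates 2 or 3 of vehicle or replicates 1 or 3 of LPC + dantrolene (adjusted p = 0.0927 to 0.237) and when just the 2 groups were fitted (0.151).

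Phosphofructokinase is the committing step, and its 3 subunit genes did not share 1 pattern. PFKL, the liver-type subunit, was at 234, 302 and 242 CPM with vehicle, 221, 186 and 203 with LPC, 108, 129 and 143 with dantrolene and 79.6, 201 and 125 with the combination. It fell with dantrolene by 1.03 (standard error 0.33, adjusted p = 0.03), and the difference with the combination was −0.94 and not called (adjusted p = 0.0664), or called at −1.29 (adjusted p = 0.000719) without replicate 2 of that group. The call with dantrolene was lost without replicates 1, 2, or 3 of vehicle or replicates 1, 2, or 3 of dantrolene (adjusted p = 0.0504 to 0.183), on library totals alone (0.106), and with a block for isolation (0.0584). PFKM, the muscle-type subunit, had a log2 fold change of −0.013 with dantrolene (95% interval −0.67 to 0.64), and PFKP, the platelet-type subunit, −0.38 (−1.02 to 0.26). Neither was called in any of the 6 comparisons.

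PFKFB3 makes the bisphosphate that activates phosphofructokinase, and it was among the genes that fell most. PFKFB3 (ENSSSCG00000011133, chr10:64776315-64859118) was at 88.1, 96.1 and 77.2 CPM with vehicle and 55.1, 78.2 and 65.6 with LPC. It was at 22.1, 26.2 and 33.3 CPM with dantrolene and 17.9, 52.6 and 28.2 with the combination. All 6 libraries with dantrolene were below all 6 without it, with replicate 2 of LPC + dantrolene nearest to the LPC libraries. The log2 fold change was −1.68 with dantrolene (standard error 0.34, adjusted p = 0.000236) and −1.41 with the combination (standard error 0.34, adjusted p = 0.00234). The first held in all 18 alternatives, and the second was lost without replicate 1 of LPC + dantrolene (adjusted p = 0.0619). PFKFB4, a related enzyme of that bisphosphate, lay between 6.0 and 15.3 CPM in all libraries and was at −0.40 with dantrolene (95% interval −1.11 to 0.30, not called).

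**Figure D2:**
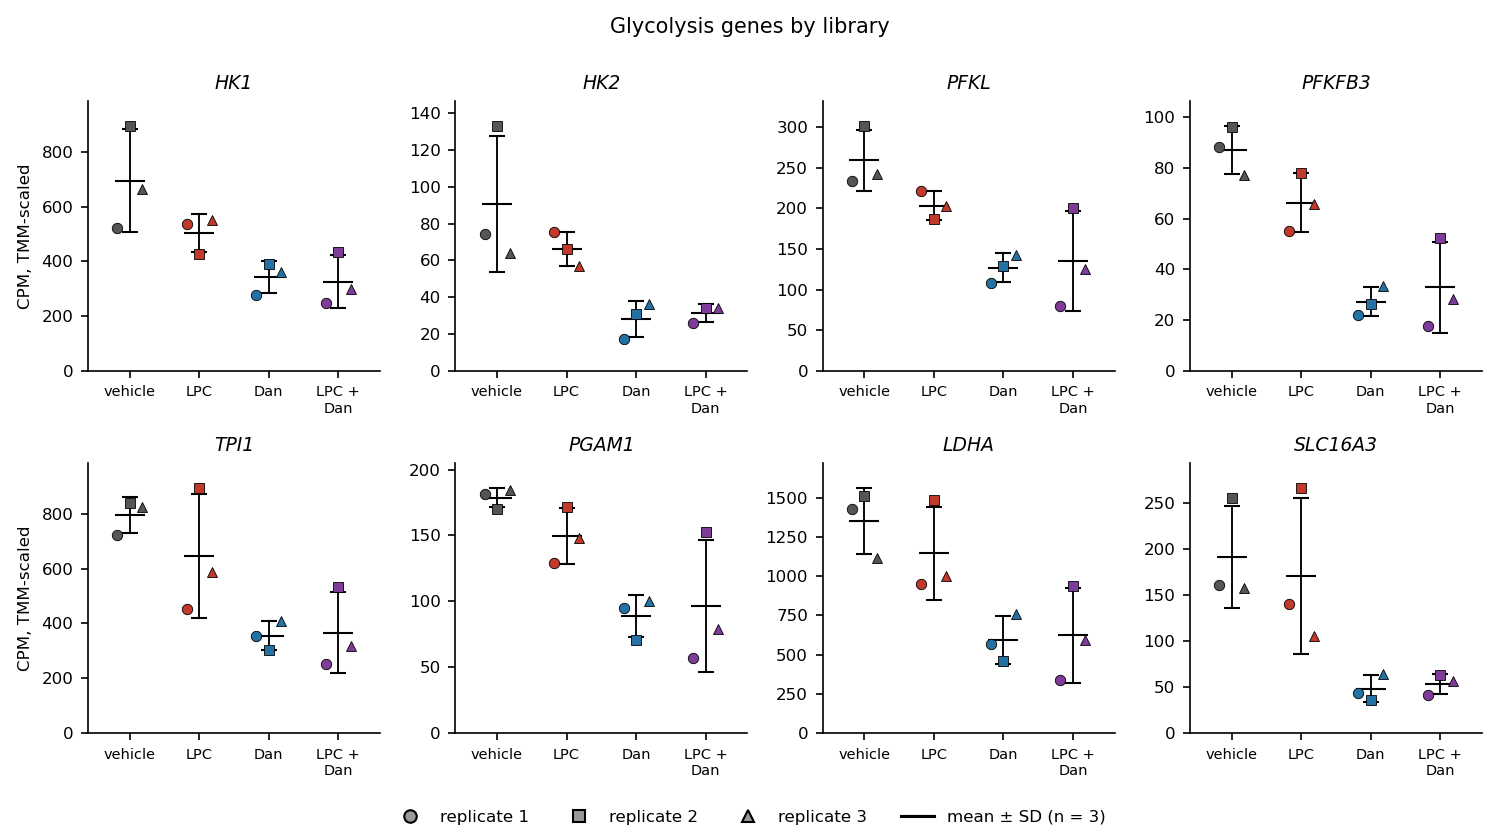
TMM-scaled CPM (vertical axis, from 0) of 8 glycolysis genes in the 4 groups, with 1 symbol per replicate number and the mean ± SD (n = 3). HK2, PFKFB3 and SLC16A3 have all libraries with dantrolene below all libraries without it, while replicate 2 of LPC + dantrolene (square) is the highest of its group for all 8 genes, by a small margin for HK2 and SLC16A3.

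In the lower part of the pathway, triose phosphate isomerase (TPI1) was at 722, 841 and 823 CPM with vehicle, 452, 895 and 588 with LPC, 355, 302 and 409 with dantrolene and 250.4, 531 and 316 with the combination. All libraries with dantrolene were below vehicle, and only replicate 2 of the combination overlapped the LPC libraries. TPI1 fell by 1.16 (standard error 0.33, adjusted p = 0.0139) and by 1.12 (standard error 0.33, adjusted p = 0.0213). The call with dantrolene was lost without replicates 2 or 3 of vehicle or replicates 1 or 2 of dantrolene (adjusted p = 0.062 to 0.137), and that with the combination without replicates 2 or 3 of vehicle or replicates 1 or 3 of LPC + dantrolene (adjusted p = 0.104 to 0.173) and when just the 2 groups were fitted (0.133). Without replicate 2 of LPC + dantrolene, TPI1 was at −1.44 compared to vehicle.

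Phosphoglycerate mutase (PGAM1) was at 181, 170.4 and 185 CPM with vehicle, 129, 172 and 147.9 with LPC, 94.7, 70.8 and 101 with dantrolene and 57.3, 153 and 78.9 with the combination. It fell by 1.01 with dantrolene (standard error 0.33, adjusted p = 0.035). The call was lost without replicates 1, 2, or 3 of vehicle, replicates 1 or 2 of LPC, or replicates 1, 2, or 3 of dantrolene (adjusted p = 0.0549 to 0.265), with RLE size factors (0.0529), on library totals alone (0.121), and with a block for isolation (0.0753). With the combination PGAM1 was at −0.89 and not called (adjusted p = 0.0912), while without replicate 2 of that group it was at −1.34 (adjusted p = 0.000359).

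GAPDH, a common reference transcript, had only 189 to 601 counts per library in its row. It was at 24.7, 29.1 and 24.9 CPM with vehicle, 14.5, 32.6 and 18.4 with LPC, 13.9, 14.4 and 17.2 with dantrolene and 13.0, 11.7 and 13.6 with the combination. GAPDH has many near-identical copies, so its reads may be split and its level is uncertain. It fell by 1.03 with the combination (standard error 0.34, adjusted p = 0.0443), and with dantrolene alone it was at −0.79 (adjusted p = 0.168, not called). The call was lost without replicates 1, 2, or 3 of vehicle, replicates 1 or 3 of LPC, replicates 1 or 3 of dantrolene, or replicates 1 or 3 of LPC + dantrolene (adjusted p = 0.0514 to 0.181), with RLE size factors (0.0656), on library totals alone (0.212), with no filter (0.0626), with a block for isolation (0.106), and when just the 2 groups were fitted (0.187).

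The remaining enzymes were not called. GPI, which turns glucose phosphate to fructose phosphate, was at −0.86 with dantrolene (95% interval −1.52 to −0.21, adjusted p = 0.0979). PGK1, the first step that yields ATP, was at −0.87 (−1.52 to −0.21, adjusted p = 0.0986), and enolase ENO1 at −0.60 (−1.25 to 0.055, adjusted p = 0.384). In all 3 of these genes every dantrolene library lay below every vehicle library. Without replicate 2 of LPC + dantrolene in the shared fit, GPI and PGK1 were called with dantrolene (adjusted p = 0.0264 and 0.0353) and with the combination (adjusted p = 0.0077 and 0.0111). ENO2, the neuronal enolase, lay between 2.68 and 9.16 CPM and was at −0.44 (adjusted p = 0.686). PKM, the last step, was found only through the table of gene names and was at −0.85 with dantrolene and −0.77 with the combination (adjusted p = 0.112 and 0.203), with no overlap with vehicle in either group. PGM1, which links glycogen to glycolysis, was at −0.52 (95% interval −1.19 to 0.15, not called).

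The enzyme that makes lactate and its exporter both fell. Lactate dehydrogenase A (LDHA) was at 1430.3, 1512 and 1113 CPM with vehicle, 948, 1484 and 1004 with LPC, 569, 457 and 757 with dantrolene and 337, 939.9 and 590.0 with the combination. All 6 libraries with dantrolene lay below the 6 others. LDHA fell by 1.19 with dantrolene (standard error 0.34, adjusted p = 0.0137) and by 1.12 with the combination (standard error 0.34, adjusted p = 0.0247). The first call was lost without replicates 1 or 2 of vehicle or replicates 1 or 2 of dantrolene (adjusted p = 0.0585 to 0.165) and on library totals alone (0.0506), and the second without replicates 1 or 2 of vehicle or replicates 1 or 3 of LPC + dantrolene (adjusted p = 0.0929 to 0.245) and when just the 2 groups were fitted (0.171). Without replicate 2 of LPC + dantrolene, LDHA was at −1.497 compared to vehicle. LDHB, whose product favours pyruvate over lactate, had 31 to 183 counts per library, and the entry of that symbol in RefSeq spans only 1280 bases, so the row may be a copy of the gene and its values are uncertain.

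SLC16A3, the transporter that carries lactate out of glycolytic cells, had the lowest fold change of the 36 genes in both comparisons. SLC16A3 (ENSSSCG00000024018, chr12:796882-807480) was at 161, 256 and 158 CPM with vehicle and 139.9, 267 and 105 with LPC. It was at 44.0, 36.3 and 64.3 CPM with dantrolene and 41.8, 62.9 and 56.1 with the combination. The highest library with dantrolene was below the lowest without it. SLC16A3 fell by 1.99 with dantrolene (standard error 0.34, adjusted p = 2.04e-05) and by 1.84 with the combination (standard error 0.34, adjusted p = 7.63e-05), and both calls held in all 18 alternatives. Compared to LPC, the combination was lower by 1.67 (standard error 0.34, adjusted p = 0.0031), a call lost without replicate 2 of LPC (adjusted p = 0.287), on library totals alone (0.0525), and when just the 2 groups were fitted (0.0731). SLC16A1, a transporter for lactate and pyruvate in either direction, was at 0.18 with dantrolene (95% interval −0.47 to 0.83) and −0.31 with the combination (−0.96 to 0.34), and was not called.

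PDK1 inhibits pyruvate dehydrogenase and so keeps pyruvate out of the mitochondrion. PDK1 lay at 109, 94.8 and 63.6 CPM with vehicle, 156, 157 and 150.4 with LPC, 86.5, 96.3 and 99.4 with dantrolene and 92.3, 38.1 and 93.7 with the combination. The LPC libraries were above all others, at 0.79 compared to vehicle (95% interval 0.14 to 1.44, adjusted p = 0.151, not called). PDK1 was called with LPC when just those 2 groups were fitted (adjusted p = 0.0155) and without replicate 2 of LPC + dantrolene (adjusted p = 0.0127).

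Among the HIF genes, the transcript of the alpha subunit HIF1A (ENSSSCG00000005096, chr1:190625436-190673926) rose with each treatment. It was at 187, 151 and 89.8 CPM with vehicle, 445, 412 and 351 with LPC, 252, 556 and 372 with dantrolene and 432, 159.8 and 668 with the combination. LPC and dantrolene libraries were all above vehicle, and in the combination replicate 2 was within the vehicle range. The log2 fold changes were 1.501, 1.47 and 1.56 with LPC, dantrolene and both (standard errors 0.36, 0.36 and 0.36, adjusted p = 0.0017, 0.00269 and 0.00143). The call with LPC held in all 18 alternatives. That with dantrolene was lost without replicate 2 of dantrolene (adjusted p = 0.109), and that with the combination without replicate 3 of LPC + dantrolene (adjusted p = 0.115). Without its replicate 2, the combination was at 1.99 compared to vehicle. The rise with both agents less the sum of the rises with each was −1.41 on the log2 scale, and was not called (adjusted p = 0.0938). This interaction passed without replicate 1 of dantrolene (−1.71, adjusted p = 0.0411) and without replicate 3 of LPC + dantrolene (−1.91, adjusted p = 0.0082).

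EPAS1, the other alpha subunit, was not called in any comparison. It was at 715, 417 and 397 CPM with vehicle, 377, 327 and 393 with LPC, 587, 302 and 424 with dantrolene and 363, 767 and 679.9 with the combination. Its LPC libraries lay below its vehicle libraries, with a log2 fold change of −0.48 (95% interval −1.14 to 0.19), and with the combination it was at 0.24 (−0.42 to 0.91). ARNT, the partner of both subunits, was at −0.22, −0.21 and −0.30 with LPC, dantrolene and both, with no call.

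Of the HIF targets ANKRD37, EGLN3 and KDM3A, only ANKRD37 was called. ANKRD37, a small ankyrin-repeat gene induced by HIF, was at 8.11, 11.8 and 6.92 CPM with vehicle, 11.9, 6.79 and 7.0 with LPC, 4.11, 3.09 and 4.86 with dantrolene and 3.42, 2.42 and 3.86 with the combination. It had 39 to 232 counts per library, and the 6 libraries with dantrolene lay below the 6 without it. ANKRD37 fell by 1.16 with dantrolene (standard error 0.39, adjusted p = 0.0473) and by 1.46 with the combination (standard error 0.40, adjusted p = 0.00902). The first call was lost without replicates 1, 2, or 3 of vehicle, replicates 1, 2, or 3 of LPC, or replicates 1, 2, or 3 of dantrolene (adjusted p = 0.0572 to 0.308), with RLE size factors (0.0629), on library totals alone (0.217), with no filter (0.0768), and with a block for isolation (0.0962), and the second without replicate 2 of vehicle (adjusted p = 0.115), on library totals alone (0.0729), and when just the 2 groups were fitted (0.0783).

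EGLN3, a prolyl hydroxylase that marks HIF alpha, was at 57.8, 27.7 and 38.1 CPM with vehicle and 22.0, 21.7 and 26.5 with the combination, a difference of −0.82 (95% interval −1.48 to −0.15, adjusted p = 0.162, not called). With dantrolene alone it was at −0.54 (adjusted p = 0.471). KDM3A, a histone demethylase, was at −0.28 and −0.29 with dantrolene and the combination, with 95% intervals of −0.93 to 0.36 and −0.93 to 0.36. EGLN1 and MXI1, a prolyl hydroxylase and a repressor of MYC targets that were found through the table of gene names, were at −0.37 and −0.34 with dantrolene and −0.46 and −0.78 with the combination, with no call.

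BNIP3, a receptor for the removal of mitochondria by autophagy, fell with dantrolene, and its relative BNIP3L was not called. BNIP3 was at 384, 479 and 350.4 CPM with vehicle, 255, 413 and 219.7 with LPC, 137, 85.8 and 170.2 with dantrolene and 84.1, 201 and 139 with the combination. All libraries with dantrolene were below all others. It fell by 1.63 (standard error 0.34, adjusted p = 0.0004) and by 1.52 (standard error 0.34, adjusted p = 0.00104), and both calls held in all 18 alternatives. BNIP3L was at 122, 92.4 and 72.1 CPM with vehicle, 144, 166 and 147.6 with LPC, 113, 129 and 119.8 with dantrolene and 109.6, 43.9 and 115 with the combination. Its highest values were those with LPC, at 0.67 compared to vehicle (95% interval 0.024 to 1.324, adjusted p = 0.283), a difference that passed without replicate 2 of LPC + dantrolene (adjusted p = 0.0407).

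Of the secreted vessel factors, adrenomedullin (ADM), a vasodilator peptide, was at 35.3, 74.5 and 67.4 CPM with vehicle, 53.7, 31.8 and 49.5 with LPC, 20.6, 32.8 and 32.2 with dantrolene and 31.5, 34.8 and 17.3 with the combination. Replicate 1 of vehicle lay just above the highest library with dantrolene. ADM fell by 1.05 with dantrolene (standard error 0.34, adjusted p = 0.0355) and by 1.08 with the combination (standard error 0.34, adjusted p = 0.0327). The first call was lost without replicates 2 or 3 of vehicle, replicates 1 or 2 of LPC, or replicates 1, 2, or 3 of dantrolene (adjusted p = 0.0596 to 0.277), with DESeq2's Wald test (0.0619), with RLE size factors (0.0571), on library totals alone (0.216), and with a block for isolation (0.0894), and the second without replicates 2 or 3 of vehicle, replicates 1 or 2 of LPC, replicate 1 of dantrolene, or replicates 1 or 3 of LPC + dantrolene (adjusted p = 0.0557 to 0.435), with DESeq2's Wald test (0.0585), with RLE size factors (0.0564), on library totals alone (0.159), with a block for isolation (0.109), and when just the 2 groups were fitted (0.201).

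VEGFA, the main growth factor of vessels, was at 337, 181 and 158 CPM with vehicle, 167, 317 and 142 with LPC, 136, 119 and 169 with dantrolene and 157, 167 and 236 with the combination. Replicate 1 of vehicle and replicate 2 of LPC were the 2 high libraries, and the groups overlapped. VEGFA was not called, at −0.67 with dantrolene (95% interval −1.34 to −0.0071, adjusted p = 0.298), −0.27 with the combination (−0.93 to 0.39) and −0.11 with LPC (−0.77 to 0.55).

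**Figure D3:**
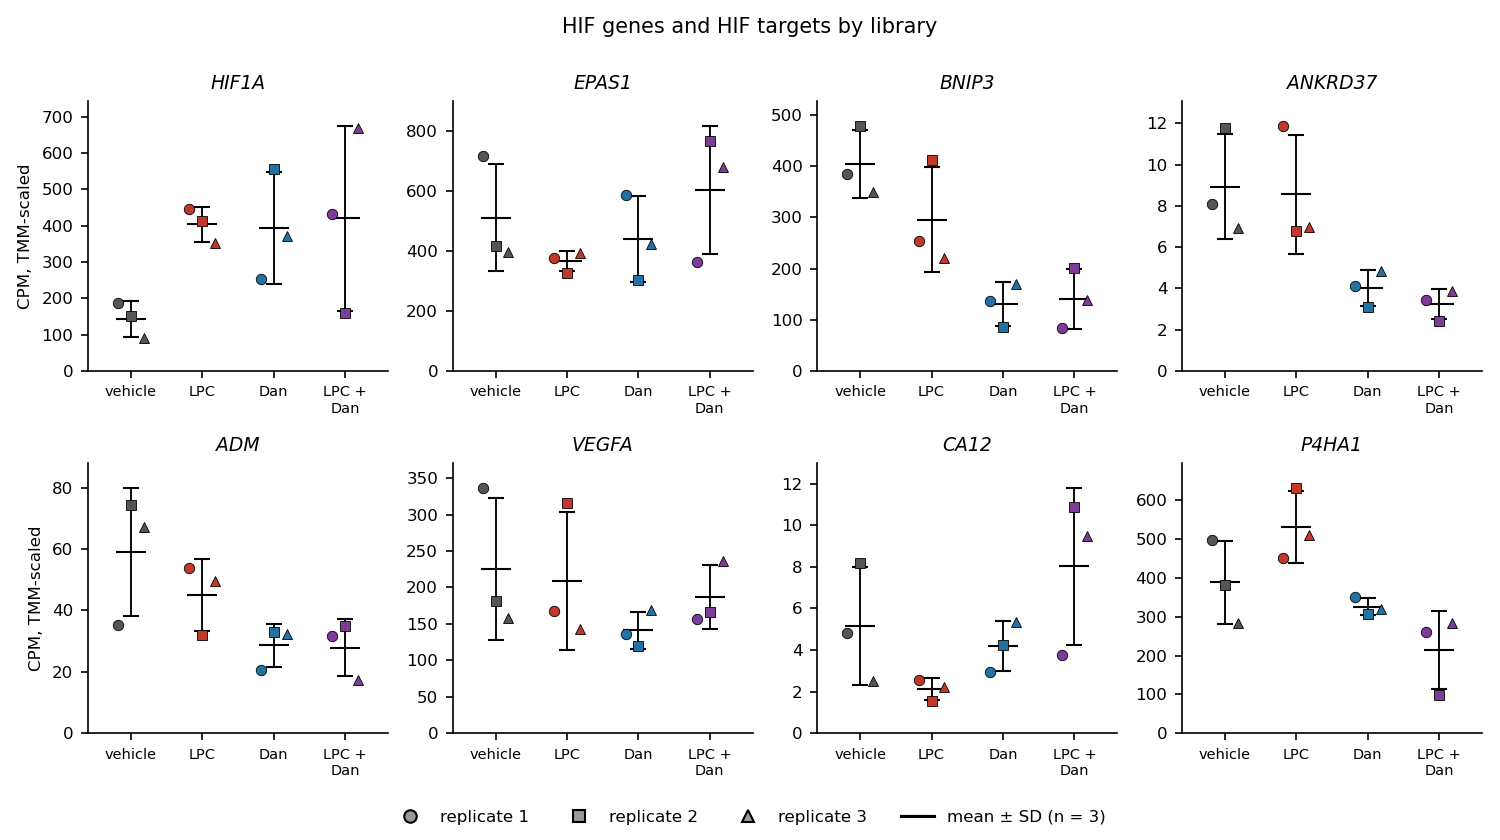
TMM-scaled CPM (vertical axis, from 0) of HIF1A, EPAS1 and 6 HIF targets in the 4 groups, with 1 symbol per replicate number and the mean ± SD (n = 3). HIF1A is above vehicle in all LPC and dantrolene libraries and BNIP3 and ANKRD37 are low in all 6 libraries with dantrolene, while replicate 2 of LPC + dantrolene (square) is low for HIF1A and P4HA1.

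Collagen prolyl hydroxylase needs a catalytic alpha subunit, and P4HA1 and P4HA2 encode the main forms. P4HA1 was at 499, 383 and 284 CPM with vehicle, 451, 632 and 511 with LPC, 352, 308 and 319 with dantrolene and 261, 97.8 and 283 with the combination. The combination lay below every other group, and its replicate 2 was the lowest library. P4HA1 was lower in the combination than with LPC by 1.31 on the log2 scale (standard error 0.34, adjusted p = 0.0464), but not called against vehicle (−0.86, adjusted p = 0.128). The call against LPC was lost without replicates 1 or 2 of vehicle, replicates 1, 2, or 3 of LPC, replicates 1 or 2 of dantrolene, or replicates 2 or 3 of LPC + dantrolene (adjusted p = 0.0524 to 0.403), with RLE size factors (0.0627), on library totals alone (0.307), with a block for isolation (0.151), and when just the 2 groups were fitted (0.374). P4HA2 was at 0.061 in the same comparison (95% interval −0.60 to 0.72) and at −0.48 with dantrolene compared to vehicle (−1.14 to 0.18), with no call.

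CA12 and CA9 are carbonic anhydrases of the cell surface that handle acid. CA12 (ENSSSCG00000004565, chr1:108649277-108710658) had only 28 to 189 counts per library. It was at 4.82, 8.18 and 2.50 CPM with vehicle, 2.56, 1.52 and 2.21 with LPC, 2.96, 4.23 and 5.35 with dantrolene and 3.74, 10.9 and 9.48 with the combination. All LPC libraries lay below all libraries of the combination, and CA12 was higher there by 1.93 (standard error 0.45, adjusted p = 0.0159). The call was lost without replicate 1 of vehicle, replicates 1, 2, or 3 of LPC, or replicate 3 of LPC + dantrolene (adjusted p = 0.0598 to 0.356), on library totals alone (0.129), with a block for isolation (0.177), and when just the 2 groups were fitted (0.112). CA12 was the only one of the 36 genes called higher in the combination than with LPC, where 0.219% of all tested genes were called higher. CA9 lay between 1.86 and 4.21 CPM and was called in no comparison, with −0.061 for dantrolene compared to vehicle (95% interval −0.97 to 0.85).

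The other HIF targets were not called. NDRG1, a stress gene of differentiated cells, was at −0.77 with dantrolene (95% interval −1.42 to −0.11, adjusted p = 0.17), with all 3 libraries below vehicle. It was called when just those 2 groups were fitted (adjusted p = 0.0257), and with the combination it passed without replicate 2 of that group (−0.82, adjusted p = 0.0438). DDIT4, an inhibitor of the growth kinase mTOR, was at −0.40 and −0.22 with dantrolene and the combination, and BHLHE40, a transcriptional repressor, at −0.45 and −0.34. With LPC, BHLHE40 was at −0.62 (95% interval −1.27 to 0.042), with all LPC libraries below vehicle and no call.

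LPC alone gave only 1 call, that of HIF1A. The lowest value was that of CA12, at −1.30 (standard error 0.45, adjusted p = 0.053), which passed when just those 2 groups were fitted and without replicate 3 of vehicle or any 1 replicate of LPC + dantrolene (adjusted p = 0.0242 to 0.0496). The 20 glycolysis genes had a median log2 fold change of −0.28 with LPC and none was called, with single values from −0.57 for LDHB to 0.79 for PDK1. The 95% interval of HK2 with LPC was −1.10 to 0.21, that of PFKFB3 −1.05 to 0.26 and that of SLC16A3 −0.82 to 0.49. In replicate 2, 16 of the 36 genes were lower with LPC than with vehicle, against 28 in each of the other replicates. Of all tested genes, 51.9% were lower in replicate 2, and 50.5% and 56.9% in replicates 1 and 3.

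The effect of dantrolene can be read in 2 sets of libraries that do not overlap, dantrolene against vehicle and LPC + dantrolene against LPC. In the second set, 2 of the 36 genes were called lower, SLC16A3 and P4HA1, where 0.288% of all tested genes were. At an unadjusted p under 0.05 in that direction there were 14, but the share of all genes at that threshold was not counted. The median was −0.49 for the 36 genes, −0.63 for the 20 glycolysis genes and 0.017 for all tested genes. By sign, 25 of the 36 were below 0 (48.4% of all genes). All 3 libraries of the combination were below all LPC libraries for 12 genes (4.93% of all) and above them for 1 (4.86%). Without replicate 2 of LPC + dantrolene, 6 genes were called lower, where 0.641% of all tested genes were. These were TPI1 (−1.20), PGAM1 (−1.15), PFKFB3 (−1.54), LDHA (−1.324) and BNIP3 (−1.42) beside SLC16A3 and without P4HA1. The count was 0 without replicate 2 of LPC (0.044% of all). It was 1 without replicates 1 or 2 of vehicle, replicates 1 or 3 of LPC, replicates 1 or 2 of dantrolene, or replicate 3 of LPC + dantrolene (0.0807% to 0.213% of all). It was also 1 with a block for isolation (0.0757% of all).

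Both sets of libraries gave lower values for 22 of the 36 genes, or 61.1%, and for 23.7% of all tested genes. Over the 36 genes the log2 fold changes of both sets had a Pearson r of 0.507 and a Spearman rho of 0.583, and over the 20 glycolysis genes 0.713 and 0.677. Over all 13216 tested genes r was 0.0582 and rho was −0.078. These are correlations across genes, which are not independent replicates, and both sets share the isolations, the authors' adjustment and the fit. HIF1A was at 1.47 in the first set and 0.06 in the second, and PDK1 at 0.076 and −1.05.

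**Figure D4:**
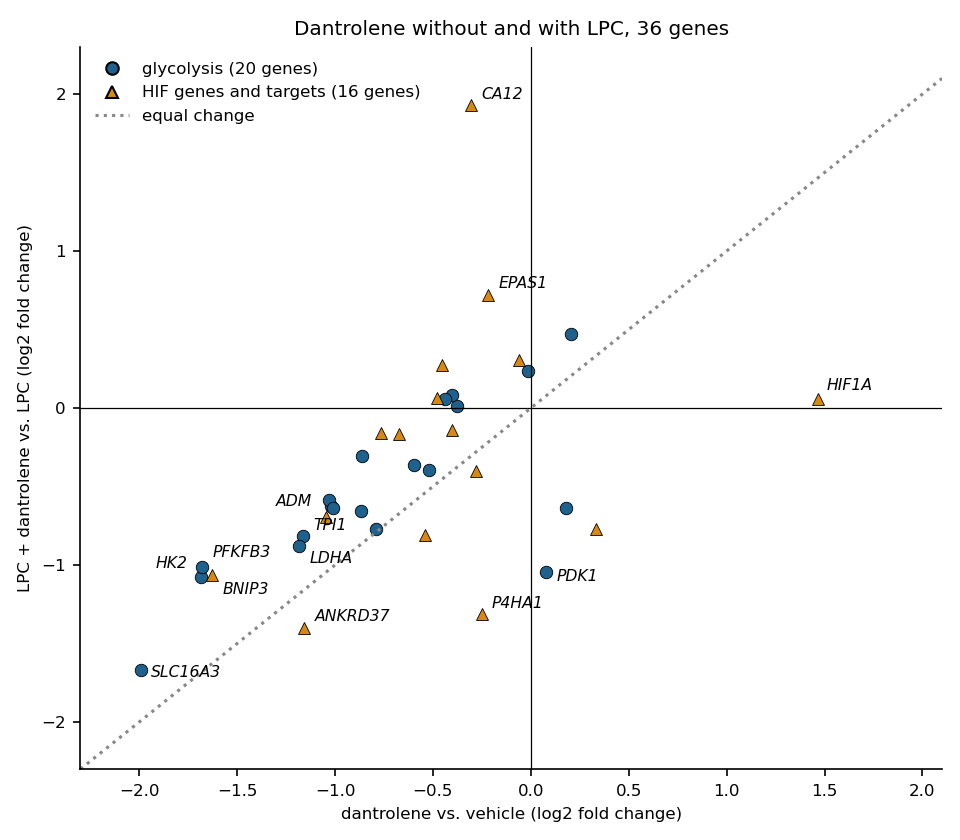
Log2 fold change of dantrolene against vehicle (horizontal axis) and of LPC + dantrolene against LPC (vertical axis) for the 20 glycolysis genes (circles) and the 16 HIF genes (triangles), with a dotted line of equal change. Of the 20 glycolysis genes, 13 lie to the lower left of the origin, with SLC16A3 lowest on both axes, while HIF1A lies far to the right and CA12 at the top.

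Compared to dantrolene alone, none of the 36 genes was called with LPC + dantrolene at an adjusted p under 0.05, where 0.0151% of all tested genes were called higher and 0.00757% lower. At an unadjusted p under 0.05, 1 of the 36 was higher and 0 lower, with no count of all genes at that threshold. DESeq2 called 0 in either direction, where 0.0227% of all genes were called higher and 0.00757% lower. The 2 genes called higher among all tested genes were PDK4 (2.77) and ANGPTL4 (2.84), both among the further pathway genes described below. ANGPTL4 held its call in all 18 alternatives. PDK4, with 6 to 299 counts per library, lost its call in 4. Of the 36 genes 14 were below 0 (49.6% of all), 2 were lower in all libraries (2.17%) and 0 higher in all (2.54%). The median was 0.047 for the 36 genes, but −0.21 without replicate 2 of LPC + dantrolene and 0.25 without its replicate 1. It was −0.033 without replicate 2 of dantrolene, −0.027 on library totals alone and −0.0053 with a block for isolation. Its sign was therefore not stable. With all libraries the 95% interval was −0.51 to 0.81 for SLC16A3, −0.50 to 0.82 for HK2 and −0.55 to 0.78 for BNIP3. In the test of the interaction, the effect of LPC with dantrolene less that without it, 1 of the 36 genes was called, CA12, where 0.159% of all tested genes were called higher and 4.49% lower. By sign, 8 of the 36 were below 0 (41.4% of all). Of the 20 glycolysis genes none was called, 18 had values above 0, and their median was 0.33 against 0.18 for all tested genes. Over the 36 genes the interaction had a median of 0.35, and without replicate 2 of LPC + dantrolene it was 0.032 against −0.02 for all tested genes.

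Each library was also placed against the vehicle mean. Over the 20 glycolysis genes the median log2 difference was −0.032, 0.12 and −0.025 in replicates 1, 2 and 3 of vehicle, and −0.44, −0.094 and −0.40 with LPC. It was −0.90, −0.85 and −0.61 with dantrolene and −1.34, −0.55 and −0.88 with the combination, so the highest library with dantrolene was below the lowest without it. Over the 16 HIF genes the groups overlapped, with medians of 0.27, 0.0050 and −0.32 with vehicle, −0.35, 0.11 and −0.32 with LPC, −0.17, −0.77 and −0.29 with dantrolene, and −0.64, −0.52 and −0.069 with the combination. The median of all tested genes stayed between −0.12 and 0.049 in every library.

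**Figure D5:**
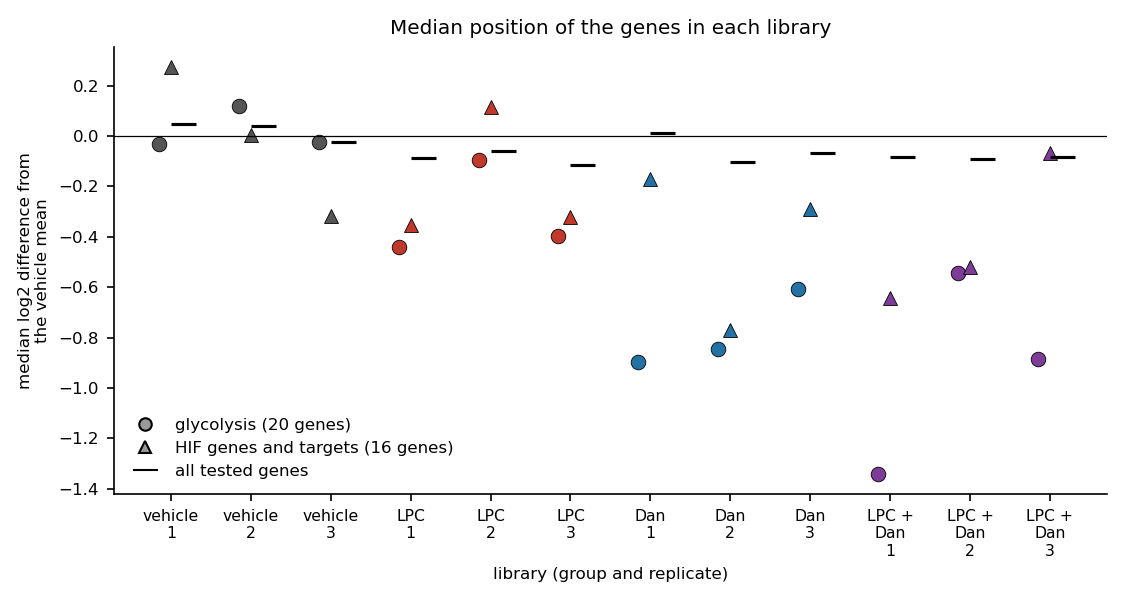
Median log2 difference from the vehicle mean (vertical axis) in each of the 12 libraries for the 20 glycolysis genes (circles), the 16 HIF genes (triangles) and all tested genes (dashes). The glycolysis medians of the 6 libraries with dantrolene lie between −1.34 and −0.55, below the −0.44 to 0.12 of the other libraries.

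Between libraries of equal replicate number, most glycolysis genes were lower with dantrolene. Compared to the vehicle library of the same number, dantrolene gave lower values for 19, 17 and 16 of the 20 genes in replicates 1, 2 and 3. The combination did so for 18, 16 and 17. In these comparisons 49.2% to 57.1% of all tested genes were lower. Compared to the LPC library, the combination was lower for 18, 13 and 16 of the 20. Of all tested genes, 51.7%, 51.6% and 46.0% were lower there. LPC alone compared to vehicle was lower for 16, 9 and 18 of the 20, and for 50.5%, 51.9% and 56.9% of all tested genes. Replicate 2 of LPC + dantrolene was the highest of its group for enzymes such as LDHA and PGAM1 but the lowest of all 12 libraries for PDK1, BNIP3L, P4HA1, SLC16A1 and KDM3A.

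Other genes of these pathways, from a list that the 36 genes leave out, gave a mixed picture. Of 27 further glycolysis and pyruvate genes, 20 were tested, among which 3 were called higher and 0 lower with LPC, 0 in either direction with dantrolene, and 1 higher with the combination. Of all tested genes, 8.54%, 7.54% and 6.23% were called higher in these comparisons. With LPC these were PDK4 (3.40), a relative of PDK1 that is known as a target of fatty acid signals, SLC16A7 (1.23), a pyruvate and lactate transporter, and GBE1 (1.15), which branches glycogen. PDK4 was also higher with the combination (2.55, adjusted p = 4.39e-05). SLC16A7 lost its call with LPC in 6 of 18 alternatives (adjusted p up to 0.168) and GBE1 in 3 of 18 (up to 0.277). For both this was so without replicates 2 or 3 of vehicle, besides replicate 1 of vehicle and replicates 1 or 3 of LPC for SLC16A7 and replicate 2 of LPC for GBE1. With a block for isolation SLC16A7 was not called (adjusted p = 0.067). ALDOA, ALDOC, PFKFB1, SLC2A4 and PCK1 did not pass the filter, and SLC2A1, the main glucose transporter of many cells, was not analysed here.

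Of 36 further HIF targets and regulators, 33 were tested, and dantrolene lowered 5 and raised 1, while LPC lowered 0 and raised 5. Of all tested genes, 1.26% and 7.54% were called lower and higher with dantrolene, and 0.144% and 8.54% with LPC. The combination lowered 3 and raised 2 compared to vehicle, and lowered 2 and raised 0 compared to LPC, where 0.9% and 6.23%, and 0.288% and 0.219%, of all tested genes were called lower and higher. Among those lower with dantrolene were the vessel peptide APLN (−1.45), the vasoconstrictor EDN1 (−1.09), the hormone STC2 (−1.06) and the collagen lysyl hydroxylase PLOD1 (−0.98). EDN1, STC2 and PLOD1 lost their calls in 9, 7 and 13 of the 18 alternatives (adjusted p up to 0.196, 0.251 and 0.289), among these without each replicate of vehicle, and APLN was at 0.0665 without replicate 2 of dantrolene. With a block for isolation EDN1, STC2 and PLOD1 were not called (adjusted p = 0.0815, 0.0582 and 0.0878). TFRC, the transferrin receptor, was higher with LPC, dantrolene and both (1.44, 1.29 and 1.47), and each of its calls was lost without replicates 2 or 3 of vehicle (adjusted p up to 0.0968, 0.151 and 0.237 over the alternatives). Higher with LPC were also ANGPTL4 (1.66), an inhibitor of lipoprotein lipase, the collagen lysyl hydroxylase PLOD2 (1.45), the protein-folding oxidase ERO1A (1.33) and the endothelial proteoglycan ESM1 (1.18). ANGPTL4 and PLOD2 held in all 18 alternatives, and ERO1A and ESM1 lost their calls in 4 and 8 (adjusted p up to 0.11 and 0.325), among these without replicate 2 of vehicle and replicates 1 or 2 of LPC, and ESM1 also with a block for isolation (0.0905). With the combination compared to vehicle, APLN (−2.08) was lower and ANGPTL4 (1.85) higher, and both held in all 18 alternatives. AK4 was also lower there, a call lost in 15 of 18. Compared to LPC, the combination was lower for APLN and ESM1, with ranges over all settings of −2.25 to −1.83 and −2.73 to −1.71. There the call of APLN held in all 18 alternatives, and that of ESM1 was lost on library totals alone (adjusted p = 0.0827).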

How the data were processed

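Poly-A RNA of 12 libraries (4 groups of 3) was read as counts per gene. The authors aligned reads to Sscrofa11.1, and the deposited counts are whole numbers of reads per gene after their ComBat adjustment for the 3 experiments. The degrees of freedom which that adjustment used are not counted in the fits here, so p-values may be too small. The aligner is STAR in the study's methods and HISAT2 2.0.5 in the submitters' processing notes, which also name DESeq2 1.32.0 and R 4.1.1. The authors' 4 tables of fold changes with standard errors, test statistics and p-values were not used.

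Counts were fitted with edgeR 4.0.16 (R 4.3.3), with filterByExpr, TMM factors, 1 quasi-likelihood fit over all 4 groups and 6 contrasts, tested on simulated data first. P-values were adjusted over 13216 genes and called under 0.05. The standard error is the absolute log2 fold change over the square root of F. Total counts were 16489684 to 24105935 per library, so 3 counts were worth 0.114 to 0.186 CPM. No library was left out, and 0 columns of other samples were present.

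The members and lists were chosen with earlier results of these data known. All members called in a comparison were named, with HIF1A, EPAS1 and VEGFA in every library, and further listed genes where called, of which 1 is not reported here by name. Positions came from RefSeq's Sscrofa11.1 table by symbol (36 of 36 matched). Equal replicate numbers were taken to mark shared isolations, which the sample labels do not state. Deviations from the group mean had a median correlation of −0.152 (−0.536 to 0.207) within an isolation and 0.108 between isolations, values that the ComBat adjustment itself sets. Alternatives were DESeq2 1.42.0, a fit with no filter on low counts, RLE size factors, library totals alone, the isolation as a replicate block, only the 2 groups compared, and leaving out each library.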

Additional observations from a re-analysis of the deposited data

Results flagged for a closer look

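Among the 36 genes and the further pathway genes, the effect of LPC differed with and without dantrolene for 3 by the interaction test of edgeR, which called 0.159% of all tested genes higher and 4.49% lower. The interstitial cell marker LUM, outside both lists, was also called (−1.58, adjusted p = 0.0367). Groups of 3 libraries are too small for a test of single outlying libraries. CA12 had an interaction of 2.23 on the log2 scale (standard error 0.62, adjusted p = 0.0187), with LPC at −1.30 without dantrolene and 0.94 with it. It had 28 to 189 counts per library, and its highest value was in replicate 2 of LPC + dantrolene. The call was lost without replicate 2 of vehicle, replicates 1 or 2 of LPC, replicates 1 or 2 of dantrolene, or replicate 2 of LPC + dantrolene (adjusted p = 0.0511 to 0.184), on library totals alone (0.119), and with a block for isolation (0.0944).

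PLOD2 and ESM1, which are further HIF targets outside the 36 genes, had interactions of −1.79 (adjusted p = 0.0123) and −1.78 (adjusted p = 0.0294). PLOD2 was at 1.45 with LPC alone and −0.34 when LPC was added to dantrolene, and ESM1 at 1.18 and −0.60. The call of PLOD2 was lost without replicate 2 of vehicle, of LPC or of dantrolene (adjusted p up to 0.116), and that of ESM1 in 9 of 17 alternatives (up to 0.36), the block for isolation among them (0.112). Causes were not tested.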

How the results depend on the processing

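Over the alternatives, called values of the 36 genes kept direction and call in 363 cases, lost the call in 140 and reversed in 0. HIF1A with LPC, HK2, PFKFB3, SLC16A3 and BNIP3 with dantrolene, and SLC16A3 and BNIP3 with LPC + dantrolene were called in all 18. The causes of lost calls were not tested, beyond the fewer libraries in some fits.

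The share of all tested genes called is in brackets. With only the 2 groups compared, LPC raised 2 (12.4%) and lowered 1 (0.454%) of the 36 genes, and LPC + dantrolene lowered 4 compared to vehicle (0.247%). Compared to LPC it raised 0 (0.0875%) and lowered 0 (0.0398%). With RLE size factors dantrolene lowered 7 (1.05%), and LPC + dantrolene lowered 1 compared to LPC (0.204%). On library totals alone dantrolene lowered 5 (0.462%). There LPC + dantrolene compared to LPC raised 0 (0.0378%) and lowered 0 (0.0151%), and the interaction gave 0 higher (0.0151%) and 0 lower (1.76%).

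With the isolation as a replicate block, dantrolene lowered 6 (0.583% of all tested genes). LPC + dantrolene compared to LPC lowered 1 (0.0757%) and raised 0 (0.0681%), and the interaction gave 0 higher (0.0227%). The other counts under the block stayed within 1.5 times those without it.

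Leaving out 1 library at a time, the genes higher ranged from 1 to 3 and lower from 0 to 1 with LPC, 0 to 1 and 4 to 13 with dantrolene, and 0 to 1 and 3 to 15 with LPC + dantrolene. In the same order, the shares of all tested genes were 4.9% to 11.9% and 0.0736% to 0.508% with LPC. They were 2.77% to 11.2% and 0.383% to 2.09% with dantrolene, and 3.42% to 12.6% and 0.308% to 2.89% with LPC + dantrolene. Compared to LPC the genes called ranged from 0 to 1 higher (0.022% to 0.39% of all) and 0 to 6 lower (0.044% to 0.641%). Compared to dantrolene they ranged from 0 to 0 in both directions (up to 0.0367% of all higher and 0.00734% lower). In the interaction they ranged from 0 to 1 in both directions (up to 0.352% of all higher and 0.0293% to 6.52% lower). Genes with few counts, such as CA12, CA9, LDHB and ANKRD37, were the limit of depth.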
